A study of Mus musculus with 3 samples.

Results

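The genes described here are 10 immediate early genes, Fos, Fosb, Jun, Junb, Atf3, Egr1, Nr4a1, Ier2, Dusp1 and Zfp36. They were taken by symbol and matched by Ensembl identifier, and all 10 were among the 30406 identifiers present in the gene lists of all 3 libraries. Immediate early genes are transcribed within minutes of a growth factor, cytokine, injury or stress signal, from factors already present in the cell, and without new protein synthesis. MAP kinases, the cyclic AMP response element binding protein CREB and the serum response factor switch them on, their messenger RNAs are short-lived, and their products include both transcription factors and the phosphatases and RNA-binding proteins that end the response. In epithelia they are known for their fast rise after wounding, and also after dissection or dissociation of a tissue.

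The study profiled nuclei of whole mouse cornea with droplet-based sequencing of transcript 3' ends, in which unique molecular identifiers (UMIs) count captured transcripts and barcodes mark droplets. The 3 groups analysed here were untreated wild-type mice (the WT library), untreated mice with a knockout of Aire (KO), and Aire knockout mice that received phosphate-buffered saline over 14 days (KO_PBS). Aire is the thymic regulator that lets developing T cells meet tissue antigens, and its loss leads to autoimmune dry eye. Each group was 1 library made from the snap-frozen corneas of 5 pooled mice aged 7 weeks by the sample labels, whereas the series text gives 6 weeks of age and treatment day 7; the lacripep group that this text names was not analysed here. The labels give neither strain, sex nor the knockout allele, and saline was given only to knockout mice. Because each group is 1 library, the comparisons have no replicate check and no test: all intervals are 95% intervals that cover counting error only, and a difference between libraries cannot be told apart from a difference between conditions.

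Aire itself had 15, 27 and 68 UMIs in the WT, KO and KO_PBS libraries, and since tags at the 3' end need not lie in a deleted part these counts check no label. The libraries held 96587, 107031 and 114357 barcodes (WT, KO and KO_PBS) with 255925024, 351335206 and 177818671 UMIs of the shared genes, and the median barcode held 2253, 2970 and 1422 UMIs. Between 2833 and 3379 barcode sequences were shared by each pair of libraries. All 6 corneal epithelium markers were detected in each library, with a summed level of 47987, 32276 and 20958 CPM, that is, UMIs per 1000000 UMIs of the shared genes in a library. Markers of other tissues moved with the groups: the summed level of 8 macrophage markers was 93.2, 861 and 804 CPM, that of 6 neutrophil markers 8.18, 661 and 54.3, that of 5 lens markers 325, 112 and 3622, and that of 7 skeletal muscle markers 10.4, 17.4 and 149, with no marker at 0 in any of these lists. The KO_PBS library also rested on another gene list, with 31053 genes against 32285 in the other libraries and 30406 shared by all 3. Its annotation thus differed, and its software version may differ too. What this does to its ratios was not tested beyond the use of shared genes. Its ratios to the others were shifted as a whole: the median gene with at least 50 UMIs over both libraries was higher by 0.24 (log2) in KO than in WT, by 0.63 in KO_PBS than in KO and by 1.27 in KO_PBS than in WT. All differences in level refer to this CPM scale, and counts of genes are repeated after each ratio was centred on that median.

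Early genes are known to be switched on through short promoter elements bound by CREB, ATF proteins and serum response factor. Stretches from 5 members are shown, 4 that hold the short form of the cyclic AMP response element and 1 that holds a CArG box. RefSeq sequences of GRCm38.p6 (250 bases before to 50 bases after the annotated start) were read for 8 of the 10 genes. Egr1 and Ier2 were not read, so the motif counts below do not cover them. Each line gives the strand of the gene 5′ to 3′, from 250 bases before the start to the start or to the last base before an annotated exon, in lower case; capitals mark TGACG, the short form of the cyclic AMP response element bound by CREB and ATF proteins, on either strand, its full form TGACGTCA, and in Fos the TATA box TATAAA.

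Fos, chr12:85473640-85473889, plus strand: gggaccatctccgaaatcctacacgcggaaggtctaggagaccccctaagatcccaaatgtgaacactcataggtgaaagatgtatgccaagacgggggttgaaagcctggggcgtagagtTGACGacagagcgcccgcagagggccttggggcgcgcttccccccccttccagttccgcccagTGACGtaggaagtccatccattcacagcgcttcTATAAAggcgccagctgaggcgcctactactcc

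Fosb, chr7:19310052-19310295, minus strand: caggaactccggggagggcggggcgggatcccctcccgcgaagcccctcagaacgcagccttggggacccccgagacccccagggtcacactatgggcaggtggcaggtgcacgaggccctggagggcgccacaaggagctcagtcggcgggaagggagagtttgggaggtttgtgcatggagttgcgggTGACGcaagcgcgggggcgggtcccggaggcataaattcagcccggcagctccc

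Nr4a1, chr15:101266596-101266845, plus strand: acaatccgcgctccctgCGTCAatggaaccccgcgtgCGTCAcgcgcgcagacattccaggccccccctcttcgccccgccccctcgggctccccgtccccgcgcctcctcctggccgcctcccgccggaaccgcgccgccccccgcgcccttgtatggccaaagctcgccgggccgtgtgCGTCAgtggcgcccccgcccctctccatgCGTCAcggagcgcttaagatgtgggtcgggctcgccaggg

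Dusp1, chr17:26508520-26508722, minus strand: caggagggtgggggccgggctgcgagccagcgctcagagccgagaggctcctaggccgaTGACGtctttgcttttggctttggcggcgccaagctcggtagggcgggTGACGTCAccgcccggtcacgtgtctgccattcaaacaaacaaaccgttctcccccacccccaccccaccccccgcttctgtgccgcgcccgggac

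For Zfp36, the 30 bases around its CArG box, the sequence bound by serum response factor, are shown with the box in capitals. They lie before the RefSeq start but inside the single Zfp36 exon of the GENCODE annotation, and the Nr4a1 and Dusp1 stretches lie between exons of the longer gene spans given there.

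Zfp36, chr7:28379267-28379296, minus strand: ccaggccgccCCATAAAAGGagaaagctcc

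The short form TGACG was found on either strand in 6 of the 8 windows (Fos, Fosb, Junb, Atf3, Nr4a1 and Dusp1), and in 17.8% of 32851 mouse promoter windows of the same length. Nr4a1 held 4 copies, all read from the opposite strand as CGTCA, and Fos held 2. Dusp1 held 3 matches, of which 2 are the overlapping strands of 1 full TGACGTCA, a sequence present in 1.55% of windows. The CArG box was found in Zfp36 alone of the 8 windows (1.47% of all windows), TATAAA in Fos alone (12.4%), and the GC box GGGCGG, on either strand, in 7 of 8 (32.7%). The AP-1 site TGACTCA, on either strand, was in none of the 8 windows and in 4.46% of all. These matches describe the sequence within these windows; binding was not measured in this study.

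The AP-1 subunits Fosb and Atf3 had the largest ratios of untreated knockout to wild type among the 10 genes. AP-1 is a family of dimers built from Jun-type, Fos-type and ATF-type proteins. Fosb (ENSMUSG00000003545, chr7:19302696-19310051), a Fos-family subunit, stood at 1.03 CPM in WT (264 UMIs), 15.3 in KO (5391 UMIs) and 4.87 in KO_PBS (866 UMIs). It was lowest in WT and highest in KO, 14.9-fold higher in KO than in WT (interval 13.1 to 16.9) and, at a log2 ratio of -1.66, lower in KO_PBS than in KO. Atf3 (ENSMUSG00000026628, chr1:191170296-191218039), an ATF-family partner known as a stress-response repressor, followed the same order with 3.88, 40.8 and 12.2 CPM. Its level in KO was 10.5-fold that in WT (9.86 to 11.2), and in KO_PBS it was 3.35-fold lower than in KO and 3.14-fold higher than in WT (log2 0.38 after centring on the median gene).

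Jun (ENSMUSG00000052684, chr4:95049034-95052222), the founding Jun subunit, stood at 38.2, 121 and 74.4 CPM (WT, KO, KO_PBS). KO was 3.16-fold above WT (3.09 to 3.23). KO_PBS lay between them, 1.95-fold above WT, a difference that changed sign when ratios were centred on the median gene (log2 0.96 before and -0.31 after). Fos (ENSMUSG00000021250, chr12:85473890-85477273), the most familiar early gene, differed less, with 26.0, 35.8 and 23.7 CPM. KO was 1.38-fold above WT (1.34 to 1.42) and KO_PBS was the lowest of the 3 libraries. Junb (ENSMUSG00000052837, chr8:84974484-84978718), a Jun subunit tied to epithelial differentiation, was the one AP-1 member that was not higher in KO, with 357 CPM in WT against 311 in KO and 314 in KO_PBS. Its log2 ratio was -0.20 in KO against WT and 0.02 in KO_PBS against KO, and the sign of the second changed under 6 of 14 alternatives. Junb also supplied 62.7% of the UMIs of all 10 genes in WT, and 40.4% and 52.4% in KO and KO_PBS. The summed level of the 10 genes was 569, 769 and 600.3 CPM (WT, KO, KO_PBS).

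Among the other early transcription factors, Egr1 (ENSMUSG00000038418), a zinc finger activator, stood at 6.99, 41.8 and 22.2 CPM (WT, KO, KO_PBS). KO was 5.98-fold above WT (5.69 to 6.28) and KO_PBS 3.17-fold above WT, the latter at a log2 ratio of 0.40 after centring on the median gene. Nr4a1 (ENSMUSG00000023034, chr15:101254269-101274795), an orphan nuclear receptor induced in activated lymphocytes and in many other cells, had another order, with 1.04, 4.30 and 9.16 CPM. It was the only member to be at least 2-fold higher in KO_PBS than in KO (2.13-fold, 1.99 to 2.29), as were 39.9% of all genes, and after centring on the median gene it no longer met the 2-fold rule (log2 1.09 before and 0.46 after). KO_PBS was 8.85-fold above WT, and this difference met the rule after centring too (log2 1.88). Ier2 (ENSMUSG00000053560, chr8:84661331-84662852), a short nuclear protein of the early response, stood at 100.2, 111 and 34.4 CPM. WT and KO differed by 1.11-fold (1.09 to 1.13), in a direction that changed when ratios were centred or scaled with TMM or DESeq2 factors. KO_PBS was the low library, 3.24-fold below KO and 2.92-fold below WT.

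The feedback members limit the response: Dusp1 (ENSMUSG00000024190, chr17:26505590-26562128) is a phosphatase that inactivates MAP kinases, and Zfp36 (ENSMUSG00000044786, chr7:28376784-28380253), or tristetraprolin, marks AU-rich cytokine and early-gene messengers for decay. Dusp1 stood at 16.5 CPM in WT, 49.4 in KO and 41.4 in KO_PBS. Both knockout libraries were above WT, by 3.00-fold (2.90 to 3.10) in KO and 2.52-fold in KO_PBS. The second difference was close to that of the median gene, with a log2 ratio of 1.33 before centring and 0.06 after. Zfp36 stood at 18.0, 39.1 and 63.8 CPM, lowest in WT and highest in KO_PBS. KO was 2.17-fold above WT (2.10 to 2.25) and KO_PBS 1.63-fold above KO. The latter difference had a log2 ratio of 0.70 before centring on the median gene and 0.07 after. Its sign changed with DESeq2 size factors (-0.08). As annotated, 4 members share exon sequence with a gene on the opposite strand: Jun with Junos (232 bases), Junb with Prdx2 (173), Dusp1 with Ergic1 (11) and Zfp36 with Gm44710 (125). Whether counting used the strand is not given in the sources used here, so reads in these stretches are uncertain.

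**Figure D1:**
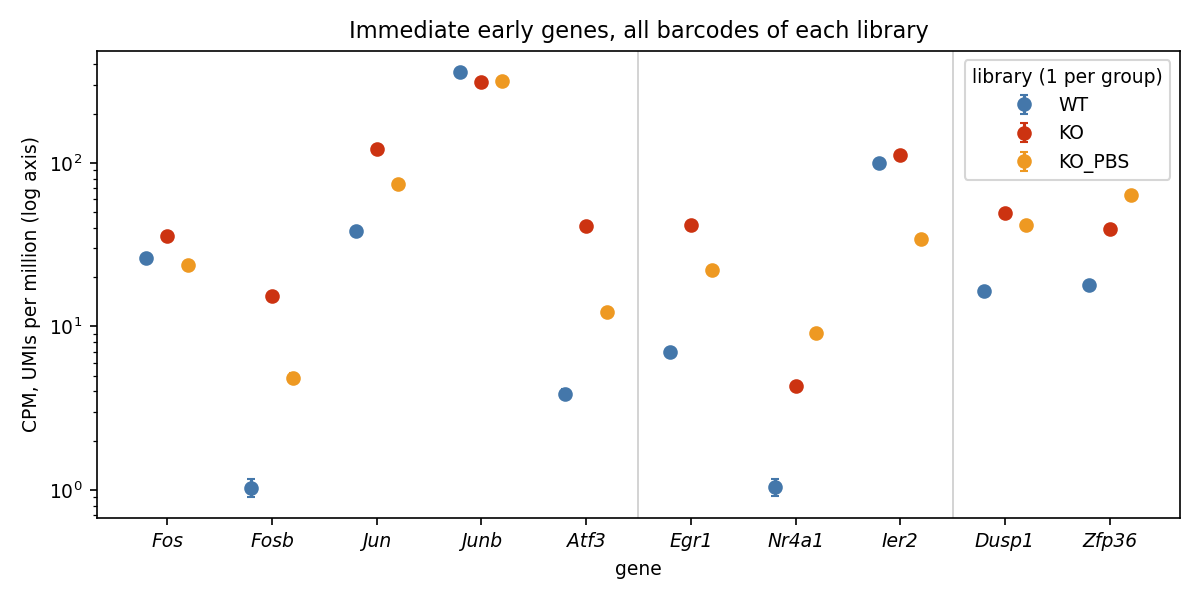
Level of each immediate early gene in CPM (log axis) over all barcodes of the WT, KO and KO_PBS libraries, 1 library per group; bars are 95% Poisson intervals, mostly smaller than the points. Fosb, Atf3 and Egr1 are lowest in WT and highest in KO, Nr4a1 and Zfp36 are highest in KO_PBS, Ier2 is lowest in KO_PBS, and Junb lies within 311 to 357 in all 3.

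Read as a set against the whole transcriptome, 7 of the 10 genes were higher and 0 lower in KO than in WT by the rule used throughout, which asks for at least 50 UMIs over both libraries, a difference of at least 2-fold and counting intervals that do not overlap. By that rule 20.6% of the 20252 genes that reached 50 UMIs were higher and 8.63% lower. The 7 were Fosb, Atf3, Egr1, Nr4a1, Jun, Dusp1 and Zfp36, and the median log2 ratio of the 10 genes was 1.62 against 0.24 over all genes. After centring, Zfp36 no longer met the rule and 6 genes were higher, against a background of 14.8%. In bulk sums such as these, more cells of a type and more RNA per cell cannot be told apart.

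The saline-treated library lay below the untreated knockout for 7 of the 10 genes as point values, not all of which met the rule. There, 3 members (Fosb, Atf3 and Ier2) were lower and 1 (Nr4a1) higher in KO_PBS than in KO, while 4.70% of the 22416 genes that reached 50 UMIs were lower and 39.9% higher. The median log2 ratio of the 10 genes was -0.65 against 0.63 over all genes. Since most genes were shifted upwards in KO_PBS, centring gave 6 members lower (Fos, Fosb, Jun, Atf3, Egr1 and Ier2) and 0 higher, against 12.9% and 29.9% of all genes. Gene length, taken as the GENCODE span, moved with this shift: genes of at most 10 kb had a median log2 ratio of 0.46 and longer ones 0.69. By these spans 7 of the 10 members are at most 10 kb long (all but Atf3, Nr4a1 and Dusp1). The spans of Atf3, Nr4a1 and Dusp1 begin upstream of their RefSeq starts, so their lengths from those starts are shorter. Of the genes of at most 10 kb, 10.7% were lower and 34.0% higher, and of the longer ones 2.27% and 42.3%. The part of gene length in the members' ratios was not tested beyond centring on the short genes, which also gave 6 lower and 0 higher.

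Set directly against WT, KO_PBS had 6 members higher (Nr4a1, Fosb, Zfp36, Egr1, Atf3 and Dusp1) and 1 lower (Ier2). Here 57.0% of the 22138 genes that reached 50 UMIs were higher and 4.06% lower, so the count of higher members is near the background. The median log2 ratio of the 10 genes was 1.49 against 1.27 over all genes. After centring, Nr4a1 alone was higher (29.6% of all genes) and Fos, Junb and Ier2 were lower (23.1% of all genes). The 3 comparisons share libraries pairwise, so their ratios are not independent of each other.

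**Figure D2:**
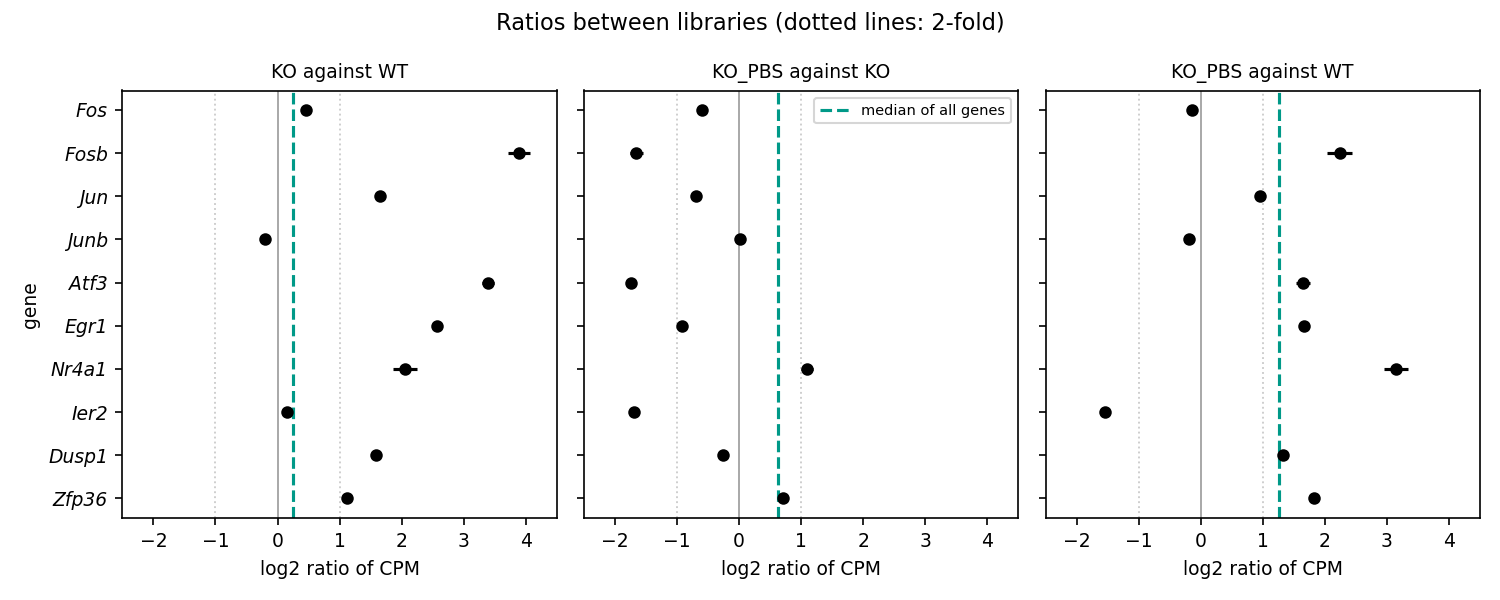
Log2 ratio of CPM for each gene in KO against WT, KO_PBS against KO and KO_PBS against WT; bars are 95% intervals for counting error, dotted lines mark 2-fold, and the dashed line is the median of all genes with enough UMIs (0.24, 0.63 and 1.27). In the first panel 7 genes lie past 2-fold on the right; in the second, 8 lie left of the dashed line; in the third the genes lie on both sides of it.

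Other genes of the early response were grouped by role and read against the same 20.6% of all genes that were higher in KO than in WT. Of 8 other AP-1 and ATF subunits, 4 were higher and 0 lower, among them Fosl1 (log2 4.52), a Fos-family subunit, and Batf and Batf3 (3.95 and 3.27), subunits used in lymphoid and dendritic cells. Of 15 other early transcription factors with enough UMIs, 10 were higher and 0 lower, led by Egr3 (4.60), Arid5a (3.50) and Egr2 (3.15). Of 18 other feedback genes, 14 were higher and 0 lower, led by Socs3 (3.70), an inhibitor of cytokine signalling, the phosphatase Dusp2 (2.62) and Tnfaip3 (2.52), an inhibitor of NF-kappaB signalling. Of 16 secreted or cytoplasmic early genes, 10 were higher and 0 lower, among them Rgs1 (6.28), which dampens chemokine receptors in leukocytes, Ptgs2 (4.52), the inducible cyclooxygenase, and the cytokine Il6 (4.52). Several of these leading genes are also expressed by leukocytes, whose markers were higher in KO, and their part in these ratios was not tested. In the lists taken for comparison, 7 of 20 upstream kinases and factors were higher, led by Crem (1.47), as were 3 of 13 heat shock genes, led by Hspa1b (1.61), and 4 of 11 nuclear and housekeeping RNAs, led by Neat1 (1.29), and none of these 3 lists had a lower gene on this scale. Malat1, an abundant nuclear RNA of the last list that was singled out after its values were seen, moved with the groups at 10150, 5798 and 11281 CPM (WT, KO, KO_PBS), with a log2 ratio of -0.81 in KO against WT and 0.96 in KO_PBS against KO. The part of nuclear RNA content in the members' ratios was not tested. After centring on the median gene, where 14.8% of all genes were higher and 12.9% lower, the genes higher in KO were 3 of 8 AP-1 and ATF subunits, 8 of 15 early factors, 11 of 18 feedback genes and 9 of 16 secreted or cytoplasmic genes, with 0 lower in each list. The upstream list then had 4 higher and 0 lower, and the heat shock and housekeeping lists had 1 higher and 1 lower each. Heat shock genes, like early genes, also respond to the handling of a tissue, and the part of handling in these ratios was not tested. The median log2 ratios of these 3 lists were 0.67, 0.67 and 0.25, against 0.94, 1.47, 1.39 and 2.05 for the 4 early-response lists in the order given.

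Between KO_PBS and KO, where 39.9% of all genes were higher and 4.70% lower in KO_PBS, these lists held genes of both directions. Of the other early transcription factors, Klf10 (log2 -1.33) and Ier5 (-1.29) were lower while Npas4 (1.70) and Nr4a3 (1.19), a relative of Nr4a1, were higher, 2 and 2 of 16. Of the secreted or cytoplasmic genes, the kinase Plk3 (-1.63), Arc (-1.13) and Ptgs2 (-1.12) were lower and the matrix protein Ccn2 (2.11) was higher. The phosphatase Dusp8 (2.00) and Btg1 (1.08) were the higher ones of 18 feedback genes, and Maff (1.15) the higher one of 8 other AP-1 and ATF subunits. Of the upstream list, the receptor Egfr (-1.29) was lower and serum response factor, Srf (1.99), higher. Hspa1a (-1.26) was lower and Hspa8 (1.20) and Hsph1 (1.17) were higher of 13 heat shock genes, and 0 of 11 housekeeping RNAs met the rule in either direction. After centring (29.9% of all genes higher, 12.9% lower), 0 of 8 AP-1 and ATF subunits were higher in KO_PBS and 2 lower, 1 of 16 early factors higher and 5 lower, 1 of 18 feedback genes higher and 1 lower, and 1 of 16 secreted or cytoplasmic genes higher and 5 lower. The upstream list then had 1 higher and 2 lower and the heat shock list 0 higher and 3 lower, and 3 of the 11 housekeeping RNAs were lower (Neat1, Rplp0 and Ppia). The list medians lay between -0.12 and 0.43, below the median of 0.63 over all genes. Against WT, KO_PBS was higher for 6 of 8 other AP-1 and ATF subunits, 8 of 16 early factors, 13 of 18 feedback genes and 10 of 16 secreted or cytoplasmic genes, led by Fosl1 (4.36), Egr3 (4.47), Socs3 (3.67) and Rgs1 (5.48). On this scale 1 gene of these 4 lists was lower, Ier5 (-1.11). In the same comparison 10 of 20 upstream genes were higher and 0 lower, 4 of 13 heat shock genes higher and 2 lower, and 5 of 11 nuclear and housekeeping RNAs higher and 2 lower, beside 57.0% and 4.06% of all genes. These counts moved with centring, after which 29.6% of all genes were higher and 23.1% lower. The AP-1 and ATF list then had 3 higher and 1 lower, the early factors 6 and 3, the feedback genes 5 and 3, and the secreted or cytoplasmic genes 8 and 1. No upstream, heat shock or housekeeping gene was higher after centring, and 2, 5 and 4 of them were lower.

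Shares of barcodes that held a UMI were set side by side at 1 depth, since the libraries differ in UMIs per barcode. When each barcode was thinned to 1000 UMIs, 42.6% of WT barcodes, 53.2% of KO barcodes and 43.9% of KO_PBS barcodes held a UMI of any of the 10 genes (71.8%, 87.6% and 56.3% unthinned). At least 2 of the genes were seen in 6.56%, 14.8% and 8.54% of thinned barcodes (27.1%, 58.6% and 16.9% unthinned). Thinning left out 265, 226 and 16860 barcodes that were too shallow, so the KO_PBS value rests on its deeper barcodes. Jun was seen in 3.60%, 11.5% and 6.99% of thinned barcodes, Atf3 in 0.397%, 4.03% and 1.20%, and Zfp36 in 1.81%, 3.76% and 5.86%. At this depth the shares of all members but Junb followed the order of their levels in CPM, and Junb was seen in 29.5%, 26.6% and 26.5%. Unthinned, the shares for any gene and for at least 2 genes were lowest in KO_PBS, the library with the fewest UMIs per barcode.

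Deep and shallow barcodes were compared within each library. The level in the 25% of barcodes with the most UMIs, divided by that in the 25% with the fewest, ranged from 0.865 to 1.27 in WT, 0.871 to 1.05 in KO and 0.886 to 1.48 in KO_PBS over the 10 genes, with Egr1 in KO_PBS at the upper end. The shallowest barcodes, with medians of 1565, 1994 and 970 UMIs (WT, KO, KO_PBS), were not shown to be empty droplets. Their levels serve only as a reference within each library. Whether they hold RNA that is not specific to a cell type was not tested. Pairs of the genes met in 1 barcode about as often as depth alone gives: the median of observed over expected barcodes over 45 pairs was 1.01, 0.999 and 0.984 (WT, KO, KO_PBS), and that of 110 pairs of a member with a housekeeping gene 0.986, 0.988 and 0.966. The pairs that met most often relative to depth held Fosb in each library: Fosb with Dusp1 in WT (25 barcodes, 15.1 expected), Fosb with Nr4a1 in KO (101, 86.3 expected) and Fosb with Atf3 in KO_PBS (39, 19.5 expected). They are the largest of 45 ratios in each library, and ratios of pairs with few expected barcodes vary most. In KO the named pair had the lowest expected count of the 45.

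Cell types were approached through barcodes rich in the markers of a type, those whose marker UMIs had a Poisson tail below 1e-06 given their depth, with at least 3 marker genes present. Doublets were not removed. These barcodes made up 7.27% of WT, 5.37% of KO and 2.27% of KO_PBS barcodes, and types with fewer than 50 barcodes in a library were left out there. In WT the summed level of the 10 genes ran from 0.784-fold that of the other barcodes, in those rich in corneal endothelium markers, to 1.31-fold in those rich in conjunctival or superficial epithelium markers. In KO it ran from 0.851-fold (plasma cell markers) to 1.19-fold (basal and limbal epithelium markers), and in KO_PBS from 0.726-fold (photoreceptor markers) to 3.02-fold (conjunctival or superficial epithelium markers). Single genes departed further, here against the level of the shallowest barcodes. With superficial markers they ran from 0.612-fold to 2.05-fold in WT and from 0.541-fold to 7.30-fold in KO_PBS. In KO they ran from 0.577-fold to 1.15-fold with corneal epithelium markers and from 0.711-fold to 0.905-fold with plasma cell markers. Whether other genes departed as far was not counted.

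Each member was also compared between libraries within marker-rich barcodes of 1 type. For KO against WT, of 8 types with enough barcodes in both, Jun, Atf3, Egr1 and Dusp1 were higher in KO in all 8, each with an interval above 0, Zfp36 in 7, Fosb in 5, Nr4a1 in 3, and Fos and Ier2 in 2 each. Fos was lower in KO in 2 types and Ier2 in 1 as point values. These ratios were not centred, and the median gene of the whole library stood at 0.24 in this comparison. Both Ier2 intervals above 0 reached below 0.24, as did that of Fos with corneal endothelium markers and that of Egr1 with photoreceptor markers. That of Zfp36 with conjunctival or superficial epithelium markers began at 0.24. Jun's log2 ratio ranged from 0.88 to 1.60 over the types and that of Atf3 from 1.75 to 3.25. Junb had 0 types with an interval above 0 and 3 below. Between KO_PBS and KO, Ier2 was lower in all 9 types with enough barcodes, each interval below 0, with a log2 ratio from -2.81 to -1.22. Atf3 was lower in 9 of 9 as a point value and in 6 with an interval below 0. Zfp36 was higher in 5 with an interval above 0. These ratios within types were not centred, and the median gene of the whole library stood at 0.63 in this comparison. Of the 5 Zfp36 intervals, only that for conjunctival or superficial epithelium markers (2.53 to 3.13) lay wholly above 0.63. Fosb, which was lower in the whole library, had 3 intervals below 0. Its ratio lay above 0 with conjunctival or superficial epithelium markers (log2 0.31, 18 UMIs in KO_PBS and 24 in KO). It also did so with lens (0 and 2 UMIs) and macrophage markers (0 and 3 UMIs), but only because counts below 3 were set to 3. Nr4a1, the member higher in the whole library, had 0 intervals above 0 and 0 below. Its ratio was above 0 in 7 types and below 0 in 2. Of the 7, the type with basal and limbal epithelium markers held 1 Nr4a1 UMI in KO_PBS and 7 in KO. Its ratio was above 0 only because the count of 1 was set to 3. The intervals below 0 numbered 4 for Jun, 4 for Junb, 3 for Egr1, 2 for Fos and 2 for Dusp1, and those above 0 were 1 (Jun), 2 (Junb), 0 (Egr1), 0 (Fos) and 1 (Dusp1). The genes were also present in the shallowest barcodes, some near the level of the whole library. Some lay below it, as Egr1 in KO_PBS (17.2 CPM, 15.7 to 18.9, against 22.2). Others lay above it, as Dusp1 in KO (54.5 CPM, 52.5 to 56.6, against 49.4). How far RNA common to all droplets sets these ratios was not tested.

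**Figure D3:**
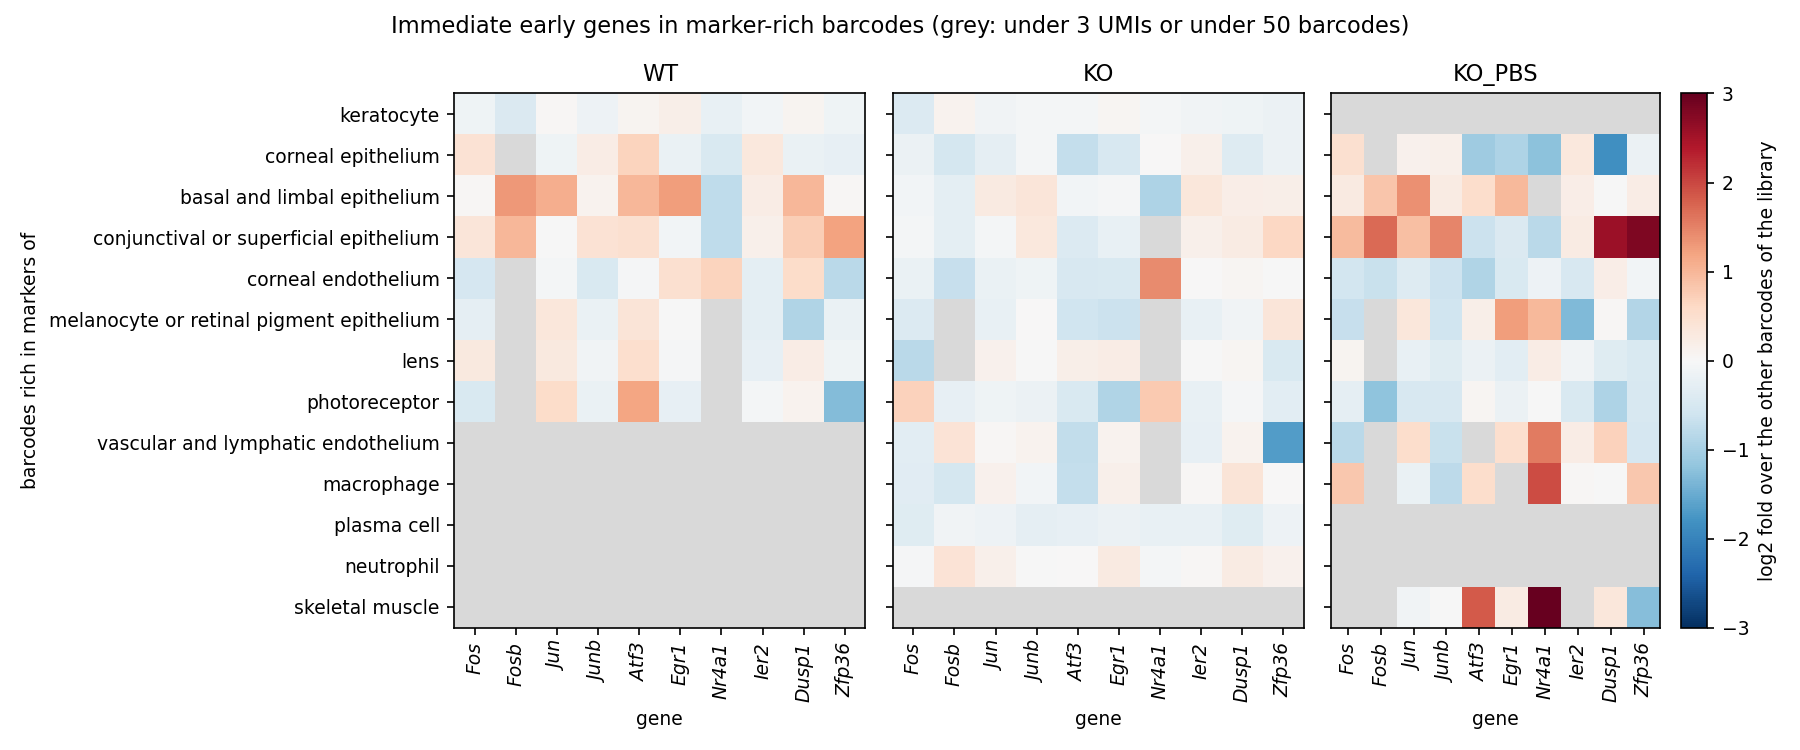
Log2 fold of each gene in barcodes rich in the markers of a cell type over the other barcodes of the same library, for WT, KO and KO_PBS; grey marks genes with under 3 UMIs or types with under 50 barcodes, and the colour scale ends at 3 in either direction. The darkest red squares are in KO_PBS: Zfp36 and Dusp1 with conjunctival or superficial epithelium markers, and Nr4a1 with skeletal muscle markers, whose 20.2-fold difference lies past the end of the scale.

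Barcodes rich in conjunctival or superficial epithelium markers (Krt4, Krt13, Krt19, Muc4, Muc16 and Psca) differed most in KO_PBS. The 351 such barcodes had a summed level of 1788 CPM (1712 to 1867), 3.02-fold the level in the other KO_PBS barcodes, against 739 (1.31-fold) in 1740 WT barcodes and 857 (1.11-fold) in 434 KO barcodes. Zfp36 stood at 424.7 CPM in these KO_PBS barcodes (388 to 464), 6.92-fold the rest of the library, and at 58.1 in the shallowest barcodes. It was at 40.4 in the WT and 60.0 in the KO barcodes of this type. In the order WT, KO and KO_PBS, Dusp1 stood at 27.0, 58.4 and 238 CPM and Junb at 475, 386 and 856. Both were highest in KO_PBS, Dusp1 5.93-fold and Junb 2.75-fold above the rest of that library. Fosb (3.26-fold), Fos (1.92-fold) and Jun (1.87-fold) also stood above the rest of KO_PBS there, with intervals above 1.

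The remaining 4 genes did not stand apart there. In the same KO_PBS barcodes Ier2 was at 1.19-fold (0.874 to 1.58), Nr4a1 at 0.567-fold, Atf3 at 0.641-fold and Egr1 at 0.743-fold the rest, all with intervals that include 1. As shares, Zfp36 was seen in 56.7% of the 351 barcodes (51.3% to 61.9%) where depth and the library level give 18.4%, Dusp1 in 41.0% where they give 12.5%, and Junb in 79.2% where they give 60.5%. In the WT barcodes of this type Zfp36 was seen in 13.0% where 6.47% would be given, and in KO in 21.7% where 15.6% would be. The excess for Zfp36 was present in each library and was widest in KO_PBS. With the looser tail of 0.001 the summed level was 1587 in KO_PBS, 834 in KO and 701 in WT.

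**Figure D4:**
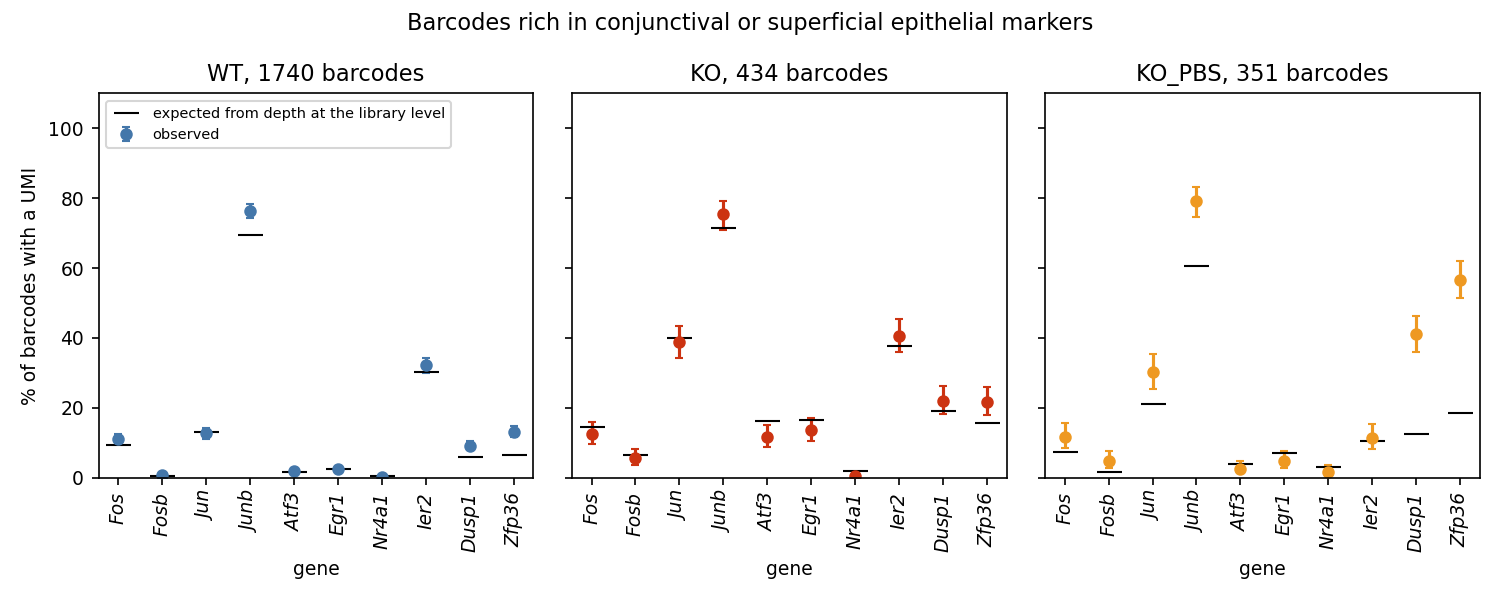
Percent of barcodes rich in conjunctival or superficial epithelium markers that held a UMI of each gene in WT, KO and KO_PBS (points, with 95% exact binomial intervals), beside the percent that the depth of these barcodes and the library level of the gene give (black dashes). In KO_PBS the points for Zfp36 (56.7%), Dusp1 (41.0%) and Junb (79.2%) lie above their dashes at 18.4%, 12.5% and 60.5%.

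Barcodes rich in the 10 genes themselves, chosen by the same tail, numbered 5 (WT), 20 (KO) and 84 (KO_PBS). In WT, 1 was rich in corneal epithelium markers, 1 in conjunctival or superficial epithelium markers and 3 in none of the lists. Of the 84, 27 were also rich in conjunctival or superficial epithelium markers, 1 in corneal endothelium markers and 56 in none of the lists. The 20 in KO fell with basal and limbal epithelium markers (3), plasma cell markers (1) or none (16). Of these, 0 were rich in neutrophil markers, though such markers summed to 2594 CPM in them (317 UMIs) against 660 in the rest of KO. Over all of KO, 1 gene supplied 430 of the 661 CPM of that list. Basal and limbal epithelium markers (6670 against 4923) and B cell markers (221 against 115) were also higher in the 20. Lower lists included those of corneal epithelium (29063 against 32277) and plasma cells (925 against 1275). In KO_PBS these barcodes held 3.21% of all Zfp36 UMIs, 3.60% of Dusp1 and 4.04% of Fosb. Without them the superficial-marker barcodes of KO_PBS still had Zfp36 at 330 CPM, Dusp1 at 175 and Junb at 691. The genes that stood out most beside the members in these barcodes, averaged over the libraries, were Lce3a, Hbegf, Phlda1, Ppp1r15a, Ier3, Nfkbia, Cd274 and Il1f6. Hbegf, an EGF receptor ligand, was at 1029 CPM in the 84 KO_PBS barcodes against 74.0 in the rest, Ppp1r15a, a stress-response phosphatase subunit, at 779.5 against 36.1, and Nfkbia, the NF-kappaB inhibitor, at 1227 against 90.7. Lce3a, a cornified envelope gene, stood at 2959 against 313 and Cd274, the checkpoint ligand PD-L1, at 1490 against 124. The barcodes were chosen for high counts of the 10 genes, so these values describe them and support no comparison. In the 20 KO barcodes the same genes stood at 139 CPM against 66.3 in the rest (Hbegf), 65.5 against 19.0 (Ppp1r15a), 229 against 99.3 (Nfkbia), 40.9 against 38.8 (Lce3a) and 40.9 against 69.4 (Cd274), with 5 to 28 UMIs each in these barcodes.

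Nr4a1 was highest in other barcodes than these. In KO_PBS it stood at 183 CPM (113 to 279) in the 51 barcodes rich in skeletal muscle markers, 20.2-fold the rest of the library, from 21 UMIs in 8 barcodes, or 15.7% of them where depth gives 2.04%. Zfp36 was at 26.1 CPM there and Dusp1 at 52.2, from 3 and 6 UMIs. Skeletal muscle markers were themselves higher in KO_PBS, and WT and KO had 22 and 18 such barcodes, too few for a value. Nr4a1 was also above the rest of KO_PBS in barcodes rich in macrophage markers (35.3 CPM, from 6 UMIs), in vascular and lymphatic endothelium markers (26.9, from 6 UMIs) and in melanocyte or retinal pigment epithelium markers (17.9, from 17 UMIs). Egr1 shared the last of these, at 52.7 CPM (39.1 to 69.5), 2.40-fold the rest. Of the types given for KO_PBS, Dusp1 was lowest in barcodes rich in corneal epithelium markers, at 11.7 CPM against 41.4 in the whole library.

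In WT barcodes rich in basal and limbal epithelium markers, the 10 genes ran from 0.618-fold to 2.41-fold the level of the shallowest barcodes. There Fosb was 2.47-fold (1.26 to 4.39), Egr1 was 2.40-fold (1.89 to 3.01), Jun 2.11-fold (1.90 to 2.34), Dusp1 2.01-fold and Atf3 2.01-fold the level of the other WT barcodes, while Ier2 was at 1.17-fold, Junb at 1.08-fold, Fos at 1.03-fold and Zfp36 at 1.02-fold. Nr4a1 was at 0.59-fold there, from 3 UMIs. Jun was at 79.1 CPM in these WT barcodes, 145 in KO and 192 in KO_PBS, and it stood above the rest of its library in each (1.21-fold in KO and 2.59-fold in KO_PBS). Egr1 and Atf3 did not stand above the rest in KO (0.976-fold and 0.943-fold). In KO_PBS Egr1 was 1.97-fold the rest (1.20 to 3.05) at 43.6 CPM, and Atf3 1.43-fold with an interval that includes 1 (0.618 to 2.83).

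Over 30 points, each a marker-rich type in a library and centred within that library, the members did not all vary together. The Pearson correlation of a gene with the mean of the other 9 was 0.69 for Junb, 0.68 for Dusp1, 0.55 for Fosb, 0.51 for Jun and 0.43 for Zfp36. It was 0.33 for Fos, 0.23 for Ier2, 0.11 for Atf3, -0.02 for Egr1 and -0.27 for Nr4a1. Outside the 10, genes whose levels were among the most like their mean were Ifi202b (0.86), Nfkbia (0.85), Muc1 (0.82) and Lrrfip1 (0.82). The points share 3 libraries and rest on few barcodes for several types, so these values are a description.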

How the data were processed

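Nuclei of whole cornea were profiled on the 10x Genomics platform. Cell Ranger 7.0.1 and the mm10 build are named in the submitters' processing notes. The gene annotation of KO_PBS differs from that of the other libraries: Gm8225 is listed for KO_PBS alone and AC122252.1 for WT and KO alone. Whether 1 software version served all 3 is unsure. The deposited matrices hold raw UMI counts per gene and barcode, per the file headers and their whole-number values; further steps by the authors are not given in the sources used here. From these, UMIs were summed over all barcodes of each library (no cell calling or doublet removal) and divided by the total over identifiers shared by the 3 gene lists. Sums have exact 95% Poisson intervals, ratios exact conditional binomial intervals and shares exact Clopper-Pearson intervals, all for counting error only. A count below 3 was set to 3 in ratios. Expected shares came from each barcode's total. The script was tested on simulated data. Alternatives covered scaling (edgeR 4.0.16 TMM and DESeq2 1.42.0 size factors, used for scaling only), barcode depth, gene totals and thresholds. Other genes named were those of each role list that met the rule, up to 3 each way, the 8 leading genes of member-rich barcodes and the 5 most alike genes, of which 1 is not reported here. The members and lists were chosen with earlier results of these data known. Gene positions are from GENCODE M21, promoters from RefSeq GRCm38.p6.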

Additional observations from a re-analysis of the deposited data

How the results depend on the processing

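The counts of members higher and lower in KO than in WT stayed within 6 to 7 and at 0 under all 14 alternatives. For KO_PBS against KO the counts were 1 higher and 3 lower. Centring on the median gene gave 0 higher and 6 lower, as did edgeR TMM factors. Centring on the median gene of at most 10 kb (chosen after seeing the data) also gave 0 and 6. DESeq2 size factors gave 0 and 7, and a 1.5-fold threshold 2 and 6. At that 1.5-fold threshold 50.9% of all genes counted as higher and 8.59% as lower. For KO_PBS against WT (6 higher and 1 lower), centring gave 1 higher and 3 lower, centring on short genes 2 and 3, TMM factors 3 higher, and DESeq2 size factors 2 and 3. The remaining alternatives kept the counts of both comparisons within 1.5 times. Shares of all genes are not given here for short-gene centring, TMM factors or DESeq2 size factors, so those counts have no background beside them. No member that met the rule changed direction under any alternative. No paired analysis was possible because each group has 1 library. Leaving out a replicate was likewise not run. Depth limits Fosb and Nr4a1 most, with 264 and 265 UMIs in WT, and their values in marker-rich barcodes rest on few UMIs.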
